A study of Mus musculus with 12 samples.

Results

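E2f6 and 9 further genes of mouse Polycomb repressor complexes were followed across the 12 libraries of the series. The 10 genes were E2f6, Pcgf6, Mga, L3mbtl2, Max and Rybp of the E2f6-containing complex PRC1.6, and Ezh1, Ezh2, Eed and Suz12, the core of PRC2. They were taken by symbol from the 17579 genes of the deposited table, and all 10 were found. The set was chosen by the measured values of E2f6, which is higher in R6/1 retinas and not in R6/1 striata, so the genotype values of E2f6 are a description, given with no test. The other 9 genes were listed for their place in these complexes.

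The groups were R6/1 retina, wt retina, R6/1 striatum and wt striatum, all from male C57Bl/6 mice (C57BL/6 J in the study's methods) aged 13 to 15 weeks. R6/1 mice carry a transgene made of exon 1 of the human HTT gene with its CAG repeat expanded, the mutation of Huntington's disease, under the human HTT promoter. Their wt littermates do not carry it. Each library was made from RNA pooled from 3 to 4 mice, so n = 3 pools per group, and each SD describes pools and not single mice. The methods state, for R6/1, that retinal and striatal RNA came from the same mice, and the study's results state this for wt mice too. Levels are in CPM, the share of a library's counts on a common scale, set with TMM factors over the 12 libraries, whose totals ran from 14070445 to 22432431 counts.

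Polycomb complexes keep genes silent by modifying histones. PRC1 complexes place ubiquitin on histone H2A and PRC2 methylates histone H3. In PRC1.6, E2F6 and the MGA-MAX pair bind DNA and bring the complex to its target genes, many of which are germline genes that are silent in somatic tissue. E2F6 is a member of the E2F family that lacks the part needed to activate transcription, so it acts as a repressor.

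The promoters of E2f6, which chose the set, and of Pcgf6 and Suz12, which changed most among the other genes in the retina, are printed to show which E2F motifs they hold. They run from 250 bases before the start of the gene to 50 bases after it, in the direction of transcription, from RefSeq on GRCm38.p6. Capitals mark the E2F core TCCCGC or its reverse complement GCGGGA, searched on both strands.
E2f6, chr12:16810715-16811014, plus strand: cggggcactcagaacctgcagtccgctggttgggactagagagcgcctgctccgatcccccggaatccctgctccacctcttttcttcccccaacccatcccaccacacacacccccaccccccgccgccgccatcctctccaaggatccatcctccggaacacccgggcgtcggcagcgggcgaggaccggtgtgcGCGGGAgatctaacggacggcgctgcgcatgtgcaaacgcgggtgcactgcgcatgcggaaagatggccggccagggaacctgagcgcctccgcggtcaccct
Pcgf6, chr19:47050857-47051156, minus strand: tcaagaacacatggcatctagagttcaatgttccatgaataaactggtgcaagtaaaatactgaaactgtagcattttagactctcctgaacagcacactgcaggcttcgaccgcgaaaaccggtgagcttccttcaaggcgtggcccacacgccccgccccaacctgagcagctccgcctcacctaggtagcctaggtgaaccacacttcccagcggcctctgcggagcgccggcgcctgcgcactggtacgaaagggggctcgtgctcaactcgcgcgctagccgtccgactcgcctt
Suz12, chr11:79992856-79993155, plus strand: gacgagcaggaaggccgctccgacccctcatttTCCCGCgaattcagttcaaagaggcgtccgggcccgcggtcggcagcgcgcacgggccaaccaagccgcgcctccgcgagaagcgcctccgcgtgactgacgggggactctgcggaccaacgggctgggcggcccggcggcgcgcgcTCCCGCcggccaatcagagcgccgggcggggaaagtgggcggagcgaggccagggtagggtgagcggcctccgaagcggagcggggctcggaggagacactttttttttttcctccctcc
A window was found for 9 of the 10 genes, all but Rybp. The E2F core stood in 2 of the 9, in E2f6 at 53 bases before the start and in Suz12 at 217 and 70 bases before it. It stood in 20.0% of the 32851 promoter windows of the same length. The E-box CACGTG, the motif bound by MAX and its partners, stood in 1 of the 9, in Max itself at 3 bases before the start, and in 7.15% of all windows. A motif match describes these letters and is not evidence of binding.

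The tissues matched their labels, and marker RNA of several retinal cell types differed between genotypes. Rod markers (10 genes) summed to 18200 to 26200 CPM in R6/1 retinas, against 60500 to 68500 CPM in wt retinas, and did not exceed 7.59 CPM in any striatum. All 10 rod, all 8 cone and all 7 bipolar cell markers fell in R6/1 retinas, where 12.7% of all genes fell. Of 9 microglial markers 5 rose, against 9.58% of all genes, to a summed 68.0 to 77.5 CPM in R6/1 retinas against 48.6 to 50.5 CPM in wt retinas. The 10 medium spiny neuron markers summed to 1170 to 2200 CPM in R6/1 striata, against 3390 to 4560 CPM in wt striata. Of these 10, 1 passed as lower there with edgeR, against 1.32% of all genes, and 7 with DESeq2. They also summed to 652 to 693 CPM in R6/1 retinas and 932 to 988 CPM in wt retinas, where 5 fell and 1 rose. The library of wt striatum 2 weighed on the striatal comparison: 242 genes passed with all 6 libraries and 1916 passed without it. In bulk tissue, fewer cells of a type and less RNA per cell cannot be told apart, and the part of these marker differences in the results that follow was not tested.

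E2f6 had 59.5, 63.4 and 54.5 CPM in R6/1 retinas, against 29.2, 28.8 and 25.6 CPM in wt retinas. In the striatum it had 31.9, 31.8 and 35.1 CPM in R6/1 mice, against 37.4, 33.9 and 35.5 CPM in wt mice. The 3 R6/1 retinas stood above all 9 other libraries, and the 2 striatal groups overlapped. The log2 fold change was 1.12 in the retina (SE 0.08, a fold of 2.17) and -0.12 in the striatum (SE 0.08). The retinal minus the striatal effect was 1.20 (SE 0.11). Ordered by mean, E2f6 stood at 59.1 ± 4.47 CPM in R6/1 retinas, 35.6 ± 1.74 CPM in wt striata, 32.9 ± 1.89 CPM in R6/1 striata and 27.9 ± 1.97 CPM in wt retinas (SD, n = 3 each). The striatal groups, neighbours in that order, overlapped, while each wt retina was below each striatum. These values rest on 984 to 1233 counts in R6/1 retinas and 394 to 457 counts in wt retinas. The gene lies at chr12:16810963-16839742 on the plus strand of GRCm38 (ENSMUSG00000057469).

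**Figure D1:**
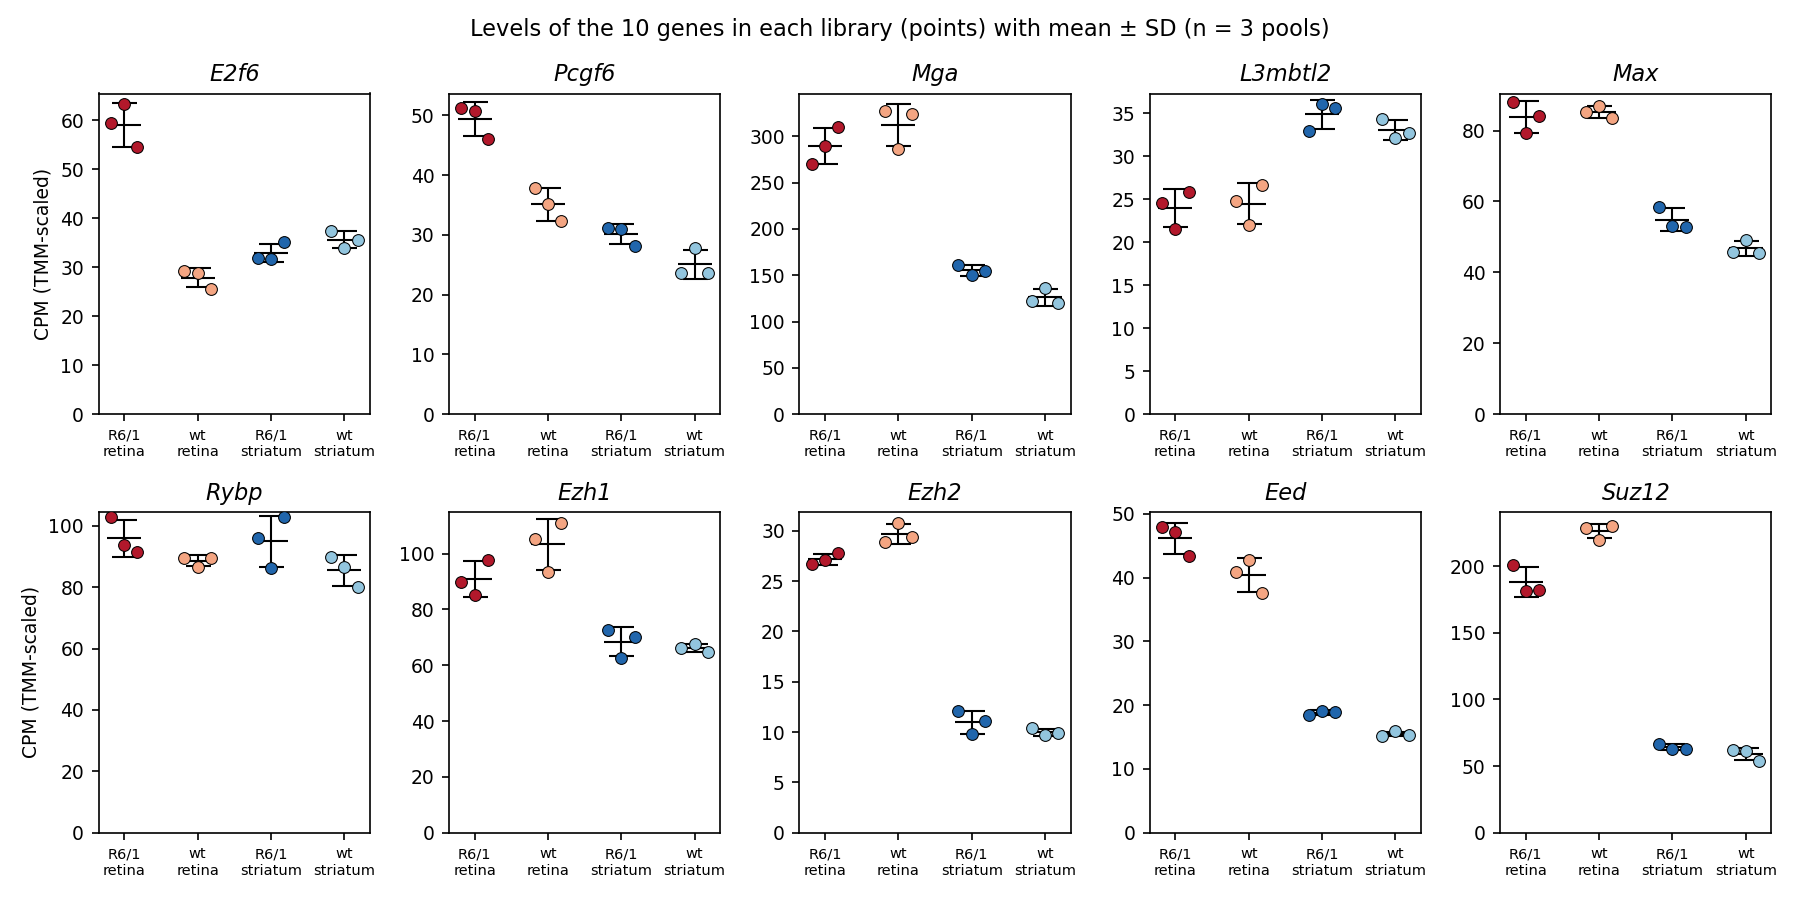
CPM of each of the 10 genes (1 panel each, vertical axis from 0) in the 12 libraries, as points, with mean and SD over 3 pools per group. The R6/1 retinas of E2f6 sit at 54.5 to 63.4 CPM, above the other 9 libraries, and Suz12 in R6/1 retinas sits at 182 to 201 CPM, below the wt retinas at 220 to 230 CPM.

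In the retina, 3 of the other 9 genes passed the test between genotypes (adjusted p under 0.05, edgeR). Pcgf6 and Eed rose, Suz12 fell, and 6 genes did not pass. Of all 16582 genes tested in the retina, 22.3% passed, 9.58% higher and 12.7% lower, so 3 of 9 is close to that background. The groups did not overlap for 5 of the 9 genes, 3 higher and 2 lower, against 38.4% of all genes, 15.3% higher and 23.0% lower. The median log2 fold change of the 9 genes was -0.003, against 0.01 over all genes. With library totals as the scale that median over all genes moved to 0.13 and the split of retinal calls to 3886 higher and 1445 lower, against 1588 higher and 2103 lower.

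Pcgf6, the RING-finger subunit that defines PRC1.6, had 51.2, 50.7 and 46.1 CPM in R6/1 retinas, against 37.9, 35.2 and 32.3 CPM in wt retinas. All R6/1 retinas were above all wt retinas. It rose by 0.52 on the log2 scale (SE 0.08, a fold of 1.44, adjusted p = 8.73e-05), and with any 1 library left out the adjusted p stayed at or under 0.00112.

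The DNA-binding pair and the further subunits of PRC1.6 gave smaller differences in the retina. Mga, the scaffold that joins T-box and MAX-type DNA binding, had 270, 289 and 310 CPM in R6/1 retinas, against 328, 286 and 324 CPM in wt retinas. The groups overlapped, with a log2 fold change of -0.08 (95% interval -0.22 to 0.06, adjusted p = 0.445) that turned to 0.04 with library totals. Max, the partner of MGA and of MYC, had 88.2, 79.3 and 84.0 CPM in R6/1 retinas, against 85.3, 86.8 and 83.6 CPM in wt retinas. Its log2 fold change was 0.01 (95% interval -0.13 to 0.14, adjusted p = 0.961). L3mbtl2, a subunit with MBT repeats that binds histones, had 24.6, 21.5 and 25.9 CPM in R6/1 retinas, against 24.8, 22 and 26.7 CPM in wt retinas. Its log2 fold change was -0.003 (95% interval -0.23 to 0.22, adjusted p = 0.989). Rybp, which joins the RING subunits of variant PRC1 complexes, had 103, 93.7 and 91.4 CPM in R6/1 retinas, against 89.6, 86.5 and 89.6 CPM in wt retinas. The groups did not overlap, but the log2 fold change of 0.15 (95% interval 0.01 to 0.28) did not pass, with an adjusted p of 0.119, or 0.00564 with library totals.

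Of the PRC2 core, Suz12, the scaffold subunit, had 201, 182 and 182 CPM in R6/1 retinas, against 229, 220 and 230 CPM in wt retinas. All R6/1 retinas were below all wt retinas. It fell by 0.23 on the log2 scale (SE 0.06, a fold of 0.85, adjusted p = 0.0107). The adjusted p was 0.052 without wt retina 1, 0.0581 without R6/1 retina 3 and 0.132 with library totals, where the log2 fold change was -0.12. Eed, the subunit that reads methylated histone H3, had 48.0, 47.2 and 43.4 CPM in R6/1 retinas, against 40.9, 42.7 and 37.6 CPM in wt retinas. The lowest R6/1 retina was just above the highest wt retina. It rose by 0.23 (SE 0.07, a fold of 1.17, adjusted p = 0.0353). That call was lost with DESeq2 (adjusted p = 0.0664), with all 12 libraries in 1 fit (0.0777) and without wt retina 1 (0.0892), wt retina 3 (0.153), R6/1 retina 1 (0.106) or R6/1 retina 2 (0.0738). In the same libraries 2 core subunits of PRC2 thus passed in opposite directions.

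The catalytic subunits of PRC2 did not pass in the retina. Ezh2, the methyltransferase of dividing cells, had 26.7, 27.1 and 27.8 CPM in R6/1 retinas, against 28.9, 30.8 and 29.4 CPM in wt retinas. The groups did not overlap, but the log2 fold change was -0.10 (95% interval -0.26 to 0.06, adjusted p = 0.402) and turned to 0.02 with library totals. Ezh1, its counterpart in cells that no longer divide, had 89.9, 85.2 and 97.8 CPM in R6/1 retinas, against 105, 93.3 and 111 CPM in wt retinas, with a log2 fold change of -0.15 (95% interval -0.31 to 0.001, adjusted p = 0.148). The log2 ratio of Ezh1 to Ezh2 counts was 1.75, 1.65 and 1.82 in R6/1 retinas, against 1.87, 1.6 and 1.92 in wt retinas. The ratio overlapped between genotypes (exact two-sided permutation test, p = 0.7), in a design where 3 against 3 cannot go below 0.1. The 8 markers of proliferating cells summed to 1.99 to 3.60 CPM in R6/1 retinas and 1.54 to 2.12 CPM in wt retinas, with Aurkb at 0 in every retina.

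**Figure D2:**
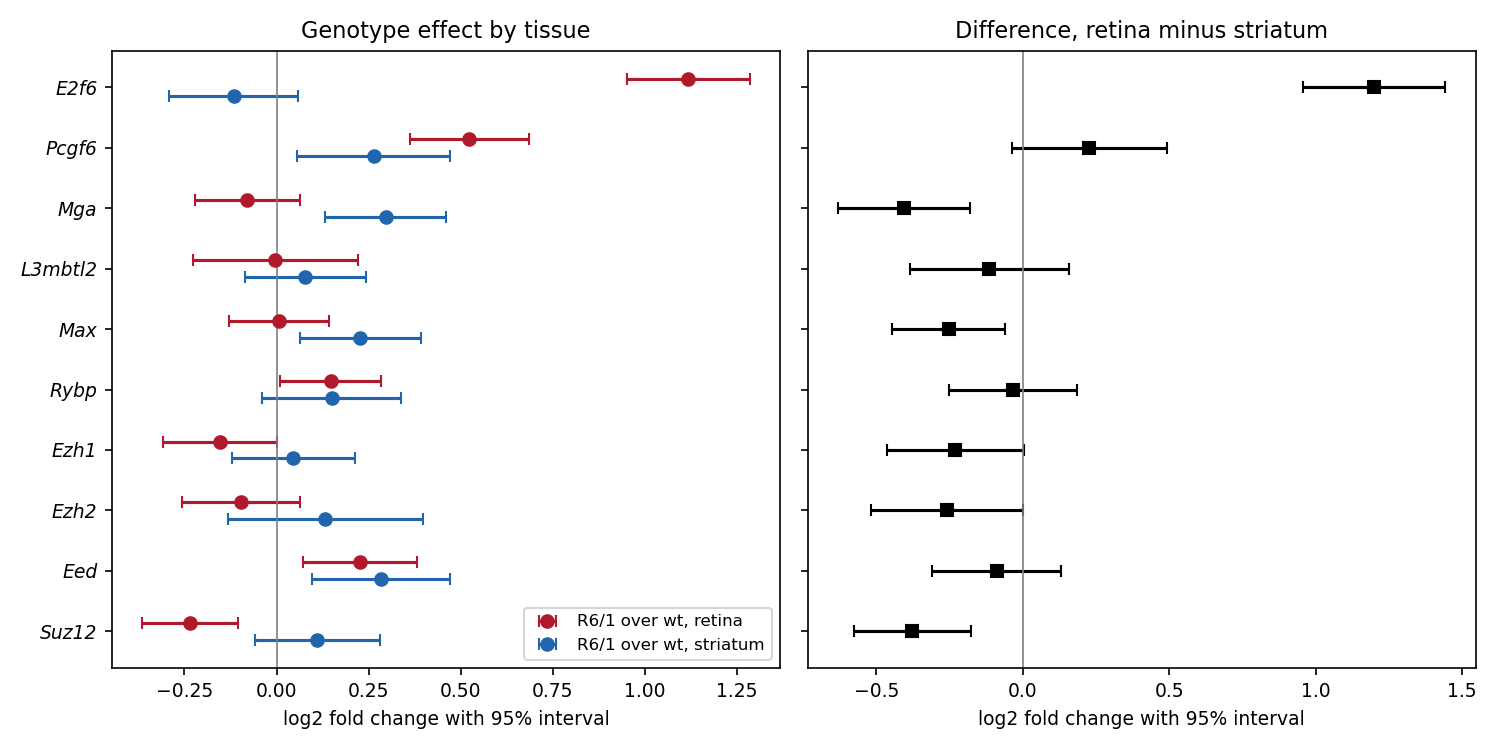
Log2 fold changes of R6/1 over wt with 95% intervals for the 10 genes in the retina and the striatum (left), and the retinal minus the striatal effect (right). E2f6 stands at 1.12 in the retina and -0.12 in the striatum, and all other points of the left panel lie between -0.23 and 0.52. The values of E2f6 chose the set, so its intervals are a description and not a test.

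In the striatum, none of the other 9 genes passed with edgeR or limma-voom, while 4 of them had an unadjusted p under 0.05 and 1 passed with DESeq2. Of all 16728 genes tested there, 1.45% passed, 0.132% higher and 1.32% lower, and 3318 had an unadjusted p under 0.05. Scaled by library totals, the striatal calls were 220 higher and 209 lower, against 22 higher and 220 lower with TMM. All 9 genes had a log2 fold change above 0, against 51.2% of all genes, with a median of 0.15, against 0.01 over all genes. In 5 of the 9 all R6/1 striata were above all wt striata and in none below, against 12.8% and 12.7% of all genes, or 25.6% either way. With library totals the median over all genes was 0.12.

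Mga came closest, with 161, 150 and 155 CPM in R6/1 striata, against 122, 137 and 120 CPM in wt striata. All R6/1 striata were above all wt striata, and the log2 fold change was 0.30 (SE 0.07, 95% interval 0.13 to 0.46, adjusted p = 0.0844). A block by replicate number assumes that R6/1 and wt striata of equal number belong together. The labels do not state this, and the assumption rests on correlations in these same data. With that block Mga passed (adjusted p = 0.0205), in a fit where 9.94% of all genes passed, 2.83% higher. It also passed with DESeq2 (adjusted p = 0.0204, where 5.87% of all genes passed, 1.06% higher), and without wt striatum 2 (0.0103).

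The other striatal values did not pass. Eed had 18.4, 19.1 and 19.0 CPM in R6/1 striata, against 15.2, 15.9 and 15.3 CPM in wt striata, without overlap. Its log2 fold change was 0.28 (95% interval 0.09 to 0.47, adjusted p = 0.115). Pcgf6 had 31.2, 31.0 and 28.2 CPM in R6/1 striata, against 23.7, 27.9 and 23.6 CPM in wt striata. Its groups did not overlap either, with a log2 fold change of 0.26 (95% interval 0.06 to 0.47) and an adjusted p of 0.168, or 0.0358 without wt striatum 2. Max had 58.5, 53.1 and 52.9 CPM in R6/1 striata, against 45.7, 49.1 and 45.5 CPM in wt striata, again apart, at 0.23 (95% interval 0.06 to 0.39, adjusted p = 0.139). Suz12 had 66.6, 62.5 and 62.9 CPM in R6/1 striata, against 61.9, 61.7 and 54.0 CPM in wt striata, at 0.11 (95% interval -0.06 to 0.28, adjusted p = 0.453). The R6/1 striata of Suz12 were thus above the wt striata by a small margin, while in the retina they were below.

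For the remaining 4 genes the striatal groups overlapped. Rybp had 96.0, 86.1 and 103 CPM in R6/1 striata, against 90.0, 86.5 and 80.0 CPM in wt striata, at 0.15 (adjusted p = 0.358). L3mbtl2 had 33.0, 36.0 and 35.6 CPM in R6/1 striata, against 34.3, 32.1 and 32.7 CPM in wt striata, at 0.08 (adjusted p = 0.6). These intervals ran up to 0.34 for Rybp and 0.24 for L3mbtl2. Ezh1 had 72.6, 62.6 and 70.2 CPM in R6/1 striata, against 66.3, 67.5 and 64.8 CPM in wt striata, at 0.05 (adjusted p = 0.785). Ezh2 had 12.1, 9.81 and 11.1 CPM in R6/1 striata, against 10.4, 9.72 and 9.88 CPM in wt striata, at 0.13 (adjusted p = 0.578). The log2 ratio of Ezh1 to Ezh2 counts was 2.64 ± 0.047 in R6/1 striata and 2.73 ± 0.0624 in wt striata (SD, n = 3 each; exact two-sided permutation test, p = 0.2).

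The genotype effect differed between the tissues for 2 of the other 9 genes, Mga and Suz12, both lower in the retina relative to the striatum. Of all 15731 genes tested, 8.24% differed, 3.38% higher and 4.86% lower, or 637 higher and 555 lower with library totals against 531 higher and 765 lower with TMM. The retinal minus the striatal effect of Suz12 was -0.38 on the log2 scale (SE 0.09, 95% interval -0.58 to -0.18, adjusted p = 0.0235). For Mga it was -0.41 (SE 0.11, 95% interval -0.63 to -0.18, adjusted p = 0.0291). With pools matched by number across the tissues, Suz12 kept its call (adjusted p = 0.0341) and Mga did not (0.064). The main test did not pair the tissues. Matching by number is an assumption, since neither labels nor methods say what equal numbers mark. Deviations from the group means of equal-numbered retinas and striata correlated over genes at 0.242, 0.119 and 0.179 in R6/1, and at -0.0261, 0.0195 and 7.6e-04 in wt, where they give no sign that equal numbers mark the same pools.

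Both differences rested on single libraries to some degree. That of Suz12 missed the threshold in 6 of 12 leave-outs, without wt retina 1 or 3, R6/1 retina 2 or 3, wt striatum 3 or R6/1 striatum 1, with an adjusted p of at most 0.0651. That of Mga missed it in 8 of 12, without library 1 or 3 of wt retina, wt striatum or R6/1 striatum, or library 1 or 2 of R6/1 retina, with at most 0.0841, and also with library totals (0.0541). For Pcgf6, which passed in the retina and not in the striatum, the difference was 0.23 (95% interval -0.04 to 0.49, adjusted p = 0.29). For Eed it was -0.09 (95% interval -0.31 to 0.13, adjusted p = 0.659). Their genotype effects were thus not shown to differ between the tissues.

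Between the wt tissues, 8 of the other 9 genes differed, 7 higher in wt retina and 1, L3mbtl2, lower. Of all 16864 genes tested between the tissues 76.3% passed, 37.8% higher and 38.5% lower. The same 8 genes did not overlap between the tissues, against 79.1% of all genes, 39.4% higher and 39.7% lower. Suz12 was 1.93 higher on the log2 scale in wt retina than in wt striatum (SE 0.07, a fold of 3.81, adjusted p = 5.83e-10), Ezh2 1.57 (SE 0.09, adjusted p = 1.67e-08) and Eed 1.38 (SE 0.08, adjusted p = 3.24e-08). Ezh1 was higher by less, 0.64 (SE 0.08, adjusted p = 1.1e-05). Of PRC1.6, Mga was 1.30 higher (SE 0.08, adjusted p = 3.65e-08), Max 0.86 (SE 0.07, adjusted p = 2.32e-07) and Pcgf6 0.48 (SE 0.10, adjusted p = 7.3e-04). L3mbtl2 was lower in wt retina, at -0.43 (SE 0.09, adjusted p = 9.85e-04). Rybp did not pass, at 0.05 (95% interval -0.10 to 0.20, adjusted p = 0.522), and E2f6, given as a description, stood at -0.36 (SE 0.08). All 8 calls held with each wt library left out in turn. The test did not pair the tissues, although both were taken from the same wt mice. With the replicate number as a block all 8 calls held too.

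**Figure D3:**
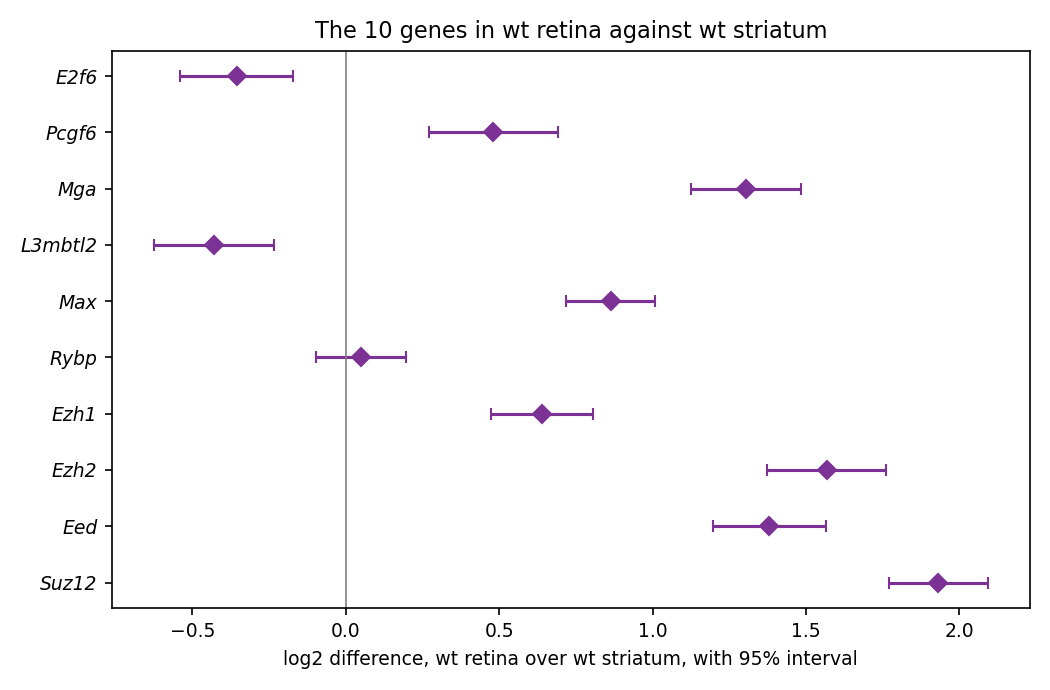
Log2 difference of wt retina over wt striatum with 95% interval for the 10 genes. Suz12, Ezh2, Eed and Mga lie between 1.30 and 1.93, Rybp lies at 0.05, and E2f6 and L3mbtl2 lie below 0.

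Per kilobase of exon the 10 genes spanned a wide range within each group. In R6/1 retinas the mean level was highest for Suz12, at 38.0 CPM per kb, and lowest for L3mbtl2, at 4.03 CPM per kb, against 45.7 and 4.12 CPM per kb for the same genes in wt retinas. In the striatum Rybp was highest, at 20.0 CPM per kb in R6/1 striata and 18 CPM per kb in wt striata, and Ezh2 lowest, at 1.65 CPM per kb in R6/1 striata and 1.5 CPM per kb in wt striata. E2f6 was the seventh of the 10 in R6/1 retinas, at 10.4 CPM per kb, next to Pcgf6 at 9.82 CPM per kb, from which it differed by less than its SD of 0.789. In wt retinas it was the eighth, at 4.93 CPM per kb, below Pcgf6 at 6.99 CPM per kb. For 5 genes the reads cannot be fully separated from those of a neighbour or copy. For those with a neighbour on the other strand, the sources used here do not state whether strand was used in counting. The exons of L3mbtl2 overlap those of Chadl, at 2.44 to 5.21 CPM over all libraries, on the other strand. Exons of Ezh2, Eed and Suz12 overlap noncoding genes on the other strand, and a pseudogene of Rybp is 99.3% identical over 681 bases.

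Beyond the 10 genes, 9 lists of related genes were counted. They held 146 genes, of which 109 were tested in the retina: 13 rose and 13 fell, 23.9% against the 22.3% of all genes. With DESeq2 14 rose and 8 fell, where 1268 of all 16582 genes rose and 1792 fell. In the striatum none of 113 tested genes passed (edgeR), 27 had an unadjusted p under 0.05, 5 passed with DESeq2, none with limma-voom and 14 with the replicate block. Of the 26 retinal calls, 10 were lost with at least 1 of the 6 libraries left out: those of Phc1, Bmi1, Bcorl1, Mtf2, Mbd6, Rbl1, Mxd1, Mnt, Sycp2 and Zcwpw1.

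Subunits of other PRC1 complexes that passed in the retina were all higher. Of 24 such genes 7 rose and none fell, while 9.58% of all genes rose, with a median log2 fold change of 0.14 against 0.01 over all genes. Cbx8, a chromodomain subunit of canonical PRC1, rose by 0.52 (SE 0.10, adjusted p = 8.9e-04), with 20.5 ± 1.45 CPM in R6/1 retinas and 14.6 ± 0.752 CPM in wt retinas (SD, n = 3 each). Scml2, a relative of the fly Polycomb protein Scm, rose by 0.89 (SE 0.16, adjusted p = 7.5e-04). In the striatum Cbx8 and Scml2 had log2 fold changes of 0.57 and 0.67 that did not pass (adjusted p = 0.105 and 0.123, or 0.0473 and 0.222 with DESeq2). Their effects were not shown to differ between the tissues (adjusted p = 0.833 for Cbx8 and 0.696 for Scml2). Bcor, the corepressor of the PCGF1 complex, rose by 0.29 (SE 0.06, adjusted p = 0.00349), with a retinal minus striatal effect of 0.54 (adjusted p = 0.00355). Bcorl1, its relative, and Phc1 passed with less room and lost the call without at least 1 library (largest adjusted p 0.0633 for Bcorl1 and 0.117 for Phc1).

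Of the 9 direct partners of PRC1.6, Hdac1, a histone deacetylase, rose by 0.33 (SE 0.07, adjusted p = 0.00141) and the other 8 did not pass. A rise in 1 of 9 is close to the 9.58% of all genes that rose. In the striatum Hdac1 had a log2 fold change of 0.51 (adjusted p = 0.0651, or 0.0075 with DESeq2 and 0.0031 with the replicate block). Its effect was not shown to differ between the tissues (adjusted p = 0.362). Among 9 accessory PRC2 subunits 2 rose and 1 fell, against 9.58% of all genes that rose and 12.7% that fell. Aebp2 rose by 0.29 (SE 0.06, adjusted p = 0.00243) and Mtf2 by 0.23 (SE 0.06, adjusted p = 0.0158, or 0.0808 at most with 1 library left out). Lcor, whose locus also makes the PRC2 partner PALI1, fell by 0.48 (SE 0.08, adjusted p = 3.81e-04). It had 52.6 ± 6.37 CPM in R6/1 retinas and 74.8 ± 3.36 CPM in wt retinas (SD, n = 3 each). Of 13 genes of the opposing deubiquitinase PR-DUB and the H3K27 demethylases none rose and 2 fell, close to the 12.7% of all genes that fell, Foxk1 by 0.25 (adjusted p = 0.0092) and Mbd6 by 0.21 (adjusted p = 0.0209). Neither passed with library totals (adjusted p = 0.117 for Foxk1 and 0.233 for Mbd6).

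**Figure D4:**
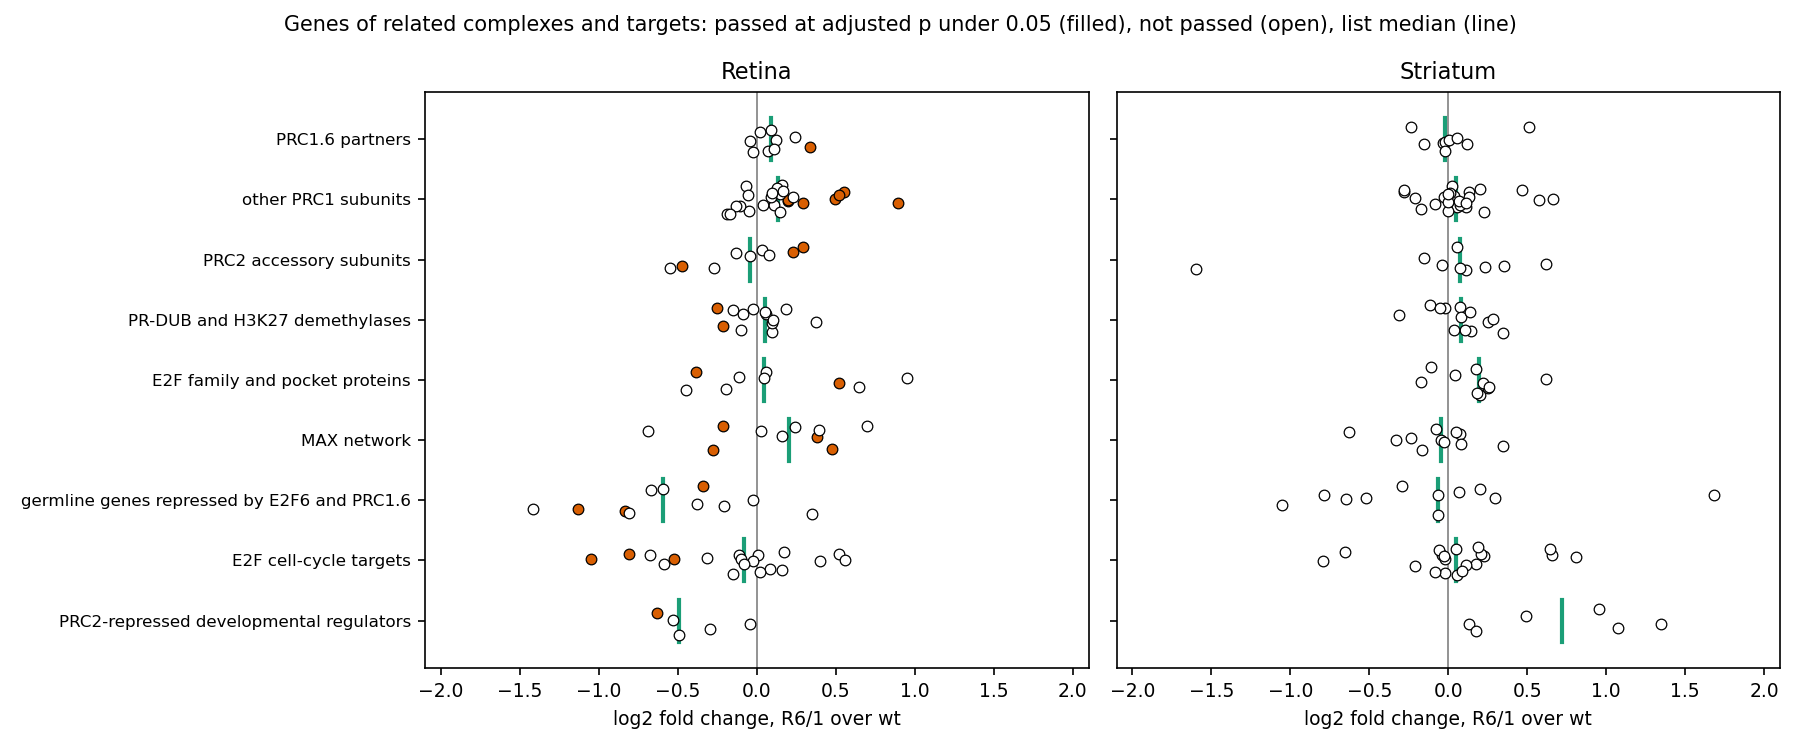
Log2 fold changes of R6/1 over wt for the genes of 9 related lists in the retina (left) and the striatum (right), filled where the adjusted p was under 0.05, with a line at each list's median. Of the 109 genes tested in the retina 13 rose and 13 fell, and none of 113 passed in the striatum.

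In the retina 1 of 9 tested genes of the E2F family and pocket proteins rose and 1 fell. In the MAX network 2 of 10 tested genes rose and 2 fell, against 9.58% of all genes that rose and 12.7% that fell. Of 9 E2F and pocket protein genes tested in the retina, E2f3 rose by 0.52 (SE 0.10, adjusted p = 8.58e-04) and Rbl1 fell by 0.38 (adjusted p = 0.0421, or 0.131 with library totals). No gene of this list passed as lower with DESeq2. E2f3 encodes an activating E2F, and it had 34.6 ± 2.14 CPM in R6/1 retinas and 24.7 ± 3.43 CPM in wt retinas (SD, n = 3 each). Of 10 genes of the MAX network tested, Mlxip and Mxi1 rose, by 0.47 (adjusted p = 0.00307) and by 0.38 (adjusted p = 0.00204). Mnt and Mxd1, repressors that pair with MAX, fell by 0.28 (adjusted p = 0.0238) and by 0.22 (adjusted p = 0.0275). Neither passed with library totals (adjusted p = 0.153 for Mnt and 0.241 for Mxd1). With DESeq2 neither passed as lower.

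The germline genes that E2F6 and PRC1.6 are known to repress were also counted. Of 24 listed germline genes 13 were in the table and 11 were tested in the retina: 3 fell and none rose, against 12.7% of all genes that fell and 9.58% that rose, with a median of -0.60 against 0.01 over all genes. With DESeq2 1 germline gene fell in the retina and none rose, where 1792 of all 16582 genes fell. The other 13 listed genes were not in the table or had too few counts in the retina. Stag3, a meiotic cohesin subunit, fell by 1.14 (SE 0.13, adjusted p = 6.45e-06), with 5.42 ± 0.594 CPM in R6/1 retinas and 12.2 ± 0.859 CPM in wt retinas (SD, n = 3 each). Zcwpw1, a reader of histone marks in meiosis, and Sycp2, part of the synaptonemal complex, passed at adjusted p = 0.0389 and 0.0436. Neither passed with library totals (adjusted p = 0.139 for Zcwpw1 and 0.0636 for Sycp2). In the striatum these 2 genes were also lower in all R6/1 libraries than in all wt libraries, as were 12.7% of all genes tested there. The part of E2f6 in these values was not tested. Sycp2 had 2.25 to 2.75 CPM in R6/1 striata, against 4.17 to 4.54 CPM in wt striata (log2 fold change -0.79, adjusted p = 0.0611, or 0.0243 with the replicate block and 0.045 with DESeq2). Zcwpw1 had 4.73 to 5.77 CPM in R6/1 striata, against 7.31 to 7.68 CPM in wt striata (log2 fold change -0.52, adjusted p = 0.0904, or 0.0403 with the block and 0.0981 with DESeq2). Their effects were not shown to differ between the tissues (adjusted p = 0.899 for Sycp2 and 0.652 for Zcwpw1), while that of Stag3, at 0.674 ± 0.194 CPM in R6/1 striata and 0.643 ± 0.199 CPM in wt striata (SD, n = 3 each), did differ (adjusted p = 0.0384, or 0.0702 with pools matched across tissues and up to 0.122 with 1 library left out).

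Of 19 cell-cycle targets of E2F tested in the retina 3 fell and none rose, close to the 12.7% of all genes that fell, with a median of -0.08 against 0.01 over all genes. Brca1, a DNA repair gene, fell by 0.81 (SE 0.13, adjusted p = 1.52e-04), with 9.37 ± 1.65 CPM in R6/1 retinas and 16.8 ± 0.958 CPM in wt retinas (SD, n = 3 each). Ccne2, a cyclin of the entry into DNA synthesis, fell by 0.52 (SE 0.13, adjusted p = 0.00836). Of 25 developmental regulators listed as repressed by PRC2, 8 were in the table and 5 were tested in the retina. Tbx3 fell by 0.64 (SE 0.13, adjusted p = 0.00198) and the other 4 did not pass, while 12.7% of all genes fell. Tbx3 was not silent in the retina, with 7.17 ± 0.742 CPM in R6/1 retinas and 11.4 ± 1.31 CPM in wt retinas (SD, n = 3 each). Stag3, Brca1 and Tbx3 were each at a higher level in wt retina than in wt striatum, by 4.22, 2.25 and 1.5 on the log2 scale (adjusted p = 5.44e-09, 4.63e-08 and 1.87e-06). They fell in the tissue in which the rod markers fell, and the part of the rods in this was not tested.

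The 5 genes whose log2 CPM followed that of E2f6 most closely over the 12 libraries, among 14160 genes with a mean of at least 1 CPM, were Akr1b3 (r = 0.953), Nr3c1 (0.932), Dcaf4 (0.929), Ctso (0.912) and Abraxas2 (0.909). The 12 points form 4 groups, so each r mostly describes the group means. These genes were picked for their likeness to E2f6, so their higher levels in R6/1 retinas follow from that choice and are a description. Akr1b3, an aldose reductase, had 45.8 to 47.9 CPM in R6/1 retinas, against 23.4 to 29.1 CPM in wt retinas, 29.2 to 31.4 CPM in R6/1 striata and 27.5 to 31.6 CPM in wt striata. Ctso, a cathepsin, had 59.0 to 69.0 CPM in R6/1 retinas, against 29.1 to 30.7 CPM in wt retinas. Among the 9 other Polycomb genes r with E2f6 was 0.659 for Pcgf6, 0.421 for Rybp and between -0.359, for L3mbtl2, and 0.38, for Eed, in the rest.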

How the data were processed

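RNA of 12 libraries, 3 pools per genotype and tissue, was measured. The deposited values are estimated counts per gene, whole numbers that are not normalized. According to their methods and processing notes, the authors prepared stranded mRNA libraries, used CASAVA and Trimmomatic before Salmon on GRCm38/mm10, and removed genes with few counts; versions, and the use of strand in counting, are not given in the sources used here. Salmon divides reads among overlapping or near-identical transcripts, which can shift the values of such genes.

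Groups came from the sample labels, symbols from GENCODE vM21 and promoters from RefSeq. Comparisons used the quasi-likelihood F-test of edgeR 4.0.16 (R 4.3.3) with robust spread and TMM factors, on genes with at least 10 counts over the libraries compared (for the difference between tissues, in each tissue). Adjustment was by Benjamini-Hochberg over all genes tested, with 0.05 as threshold. Totals of 14070445 to 22432431 counts per library set the counting precision, while p-values measure the spread between pools.

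The 10 genes and all lists were chosen with earlier results of these data known. Named were the 10 genes, up to 6 genes per list and comparison with the smallest p among those that passed, and the 5 genes most correlated with E2f6. A few of the genes this picks are not reported here; counts over lists include them.

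As alternatives, DESeq2 1.42.0 and limma-voom (limma 3.58.1) replaced edgeR. DESeq2 size factors, library totals and TMM without rod and cone genes replaced TMM. The count filter (filterByExpr or none), non-robust spread, all 12 libraries in 1 fit, replicate number as a block, each library left out and an adjusted p under 0.01 were tried as well, and a block of pools across tissues was added after seeing the data. Deviations from group means over 10445 genes correlated between R6/1 and wt striata of equal number at 0.274, 0.329 and 0.257, so the number was taken to pair striatal libraries, although the labels do not state it. R6/1 striatum 3 also correlated with wt striatum 1, at 0.240, close to its value with wt striatum 3. The other striatal pairs of unequal number lay between -0.389 and -0.0421. Python 3.11.15, pandas 2.3.3, scipy 1.17.1 and matplotlib 3.10.9 made tables and plots.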

Additional observations from a re-analysis of the deposited data

Results flagged for a closer look

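The genotype effect differed between retina and striatum (retinal minus striatal log2 effect, edgeR interaction test) for 2 of the 9 Polycomb genes other than E2f6, whose value of 1.20 is a description, and for 11 list genes reported here. The 2 Polycomb genes were Mga, at -0.406 (adjusted p = 0.0291), and Suz12, at -0.377 (adjusted p = 0.0235).

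Over the lists 12 of 105 genes tested passed, 3 higher and 9 lower, or 11.4% against 8.24% of all genes, 3.38% higher and 4.86% lower. Of the 11 reported here, 8 had a lower effect in the retina: Brca1 at -1.5, Stag3 at -1.23, Tbx3 at -0.844, Lcor at -0.737, Phf1 at -0.516, Kdm6b at -0.481, Phc3 at -0.43 and Asxl2 at -0.329. The other 3 had a higher effect in the retina: Bcor at 0.538, Mxi1 at 0.516 and Bap1 at 0.334. Bcor had 92.4 ± 4.09 CPM in R6/1 retinas against 77.3 ± 3.63 CPM in wt retinas, and 28.8 ± 1.18 CPM in R6/1 striata against 34.9 ± 2.24 CPM in wt striata (SD, n = 3 each). Brca1 had 9.37 ± 1.65 CPM in R6/1 retinas against 16.8 ± 0.958 CPM in wt retinas, and 5.53 ± 0.477 CPM in R6/1 striata against 3.49 ± 0.608 CPM in wt striata (SD, n = 3 each). The calls of 4 genes, Bcor, Brca1, Lcor and Phf1, held with each of the 12 libraries left out in turn, while each of the other 9 missed the threshold in at least 1 of the 12, and that of Bap1 in 11. With library totals Mga (adjusted p = 0.0541), Phc3 (0.0867), Kdm6b (0.0753) and Asxl2 (0.107) missed it. With pools matched across tissues 5 of the 13 were lost, namely Mga, Asxl2, Bap1, Kdm6b and Stag3, at adjusted p = 0.064, 0.0942, 0.0762, 0.063 and 0.0702.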

How the results depend on the processing

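Of the 9 genes other than E2f6, 3 passed in the retina, 0 in the striatum, 2 for the difference and 8 between wt tissues, where 8 passed under every alternative, the replicate block included. At an adjusted p under 0.01 they numbered 1 in the retina and 0 for the difference. In the striatum 1 passed with DESeq2, 1 with library totals, 1 with the replicate block, 1 with DESeq2 and the replicate block together, and 3 with all 12 libraries in 1 fit. For the difference 1 passed with library totals and 1 with the replicate block across tissues. With 1 library left out the numbers ran from 1 to 3 in the retina, from 0 to 2 in the striatum and from 0 to 2 for the difference, where an arm of 2 pools was taken to vary like the other groups. With library totals 3 passed in the retina, all higher.

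The difference of the log2 ratio of Ezh1 to Ezh2 in the retina (R6/1 minus wt) was -0.0546 and ran from -0.153 to 0.00665 with 1 library left out, changing sign without wt retina 3. Over all genes 242 passed in the striatum, against 982 with DESeq2, 1663 with the replicate block, 1035 with DESeq2 and that block, 1300 with all 12 libraries in 1 fit, 429 with library totals, 7 at an adjusted p under 0.01 and 1 to 1916 with 1 library left out. In the retina 3691 passed, against 1892 with DESeq2 and the replicate block and 2109 at an adjusted p under 0.01. For the difference 1296 passed, against 442 at an adjusted p under 0.01 and 767 to 1999 with 1 library left out. In edgeR the block changed no other call of the 9 genes than that of Mga in the striatum and, across tissues, in the difference. In the retina equal numbers correlated at 0.124, -0.0943 and 0.0511 and do not pair the libraries. With library totals 3 of the 5 genes most like E2f6 stayed the same.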

Other observations

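The table holds 6 other genes within 250 kb of E2f6 on chromosome 12, looked up after the values of E2f6 were known. Rock2, which encodes a protein kinase and lies downstream on the same strand, had 240 to 285 CPM in R6/1 retinas, against 162 to 182 CPM in wt retinas, and rose by 0.60 on the log2 scale (SE 0.07, adjusted p = 1.83e-05, edgeR). Its retinal minus striatal effect was 0.85 (SE 0.14, adjusted p = 0.00259). Greb1, upstream on the other strand, had 17.9 to 21.8 CPM in R6/1 retinas, against 14.4 to 16.3 CPM in wt retinas (adjusted p = 0.0178, or up to 0.0846 with 1 library left out). Lpin1 had 40.0 to 46.9 CPM in R6/1 retinas, against 48.0 to 56.3 CPM in wt retinas (adjusted p = 0.0419, or up to 0.186 with 1 library left out). The retinal minus striatal effect of Lpin1 was -0.56 (SE 0.12, adjusted p = 0.00964, or up to 0.0328 with 1 library left out). Of all genes tested in the retina 22.3% passed. Pqlc3 did not pass in the retina (adjusted p = 0.511), and Ntsr2 and 2410004P03Rik were at 0 there.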
